A study of Mus musculus with 18 samples.

Results

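The oncofetal liver genes described here are *Igf2bp1*, *H19*, *Afp* and *Gpc3*, which are known for high expression in fetal liver and in liver tumours and for low expression in healthy adult liver. They were chosen by name, with their values in these mice already known, and all 4 of them are among the 15052 genes of the deposited table. The choice rested on the genotype differences within each diet, and on a reading in which *Igf2bp1* and *H19* went opposite ways between the diets. Group levels and differences of these 4 genes are therefore given as a description, without a test.

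Liver RNA was sequenced from 18 mice, with 4 pair-fed WT mice (Ctrl_WT), 5 pair-fed *Apoe* KO mice (Ctrl_ApoE), 5 EtOH-fed WT mice (EtOH_WT) and 4 EtOH-fed *Apoe* KO mice (EtOH_ApoE, numbers 1, 2, 4 and 5). All were labelled female and were 10 to 12 weeks old, and all drank the liquid diet for 5 days of acclimation. The EtOH-fed groups were then switched to ethanol at 5% (v/v) in the diet over 10 days, and on day 11 had a gavage of 5 g/kg ethanol. The pair-fed groups received an isocaloric diet without ethanol and a gavage of 9 g/kg dextrin maltose, and every liver was taken 9 h after the gavage. Per the study's methods, C57BL/6J WT and *Apoe* KO mice were bought as separate lines. Tissue was whole liver, so that fewer cells of a type and less RNA per cell cannot be told apart. *Apoe*, the targeted gene, ran from 611230 to 798431 in the 9 WT mice and from 8586 to 108651 in the 9 *Apoe* KO mice, without overlap. The hepatocyte markers *Alb*, *Apoa1*, *Ttr*, *Serpina1a* and *Cps1* were above 0 in every mouse.

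The values, whole-number read counts for each gene, already carried a scaling to a nearly common total, between 32267493 and 32292618 units in each mouse. The spacing of the low values gave the number of units per read, and with it the reads on genes, in 16 of 18 mice. These estimates ran from 5.60 to 52.2 M reads (M, the SI prefix mega), with medians of 14.9 M in pair-fed WT, 23.9 M in pair-fed *Apoe* KO, 39.5 M in the 3 resolved EtOH-fed WT and 11.0 M in EtOH-fed *Apoe* KO mice. EtOH-fed *Apoe* KO mouse 1 went against its label as female: its *Xist*, the RNA of the inactive X chromosome, was 826 against 15227 to 30379 in the other 17 mice, and its Y-linked *Ddx3y* was 1077 against 2 to 118. EtOH-fed *Apoe* KO mouse 4 had the highest value of all 18 mice for 22.7% of all genes. Some differences are given with and without these mice, and the marker and list counts below include both.

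Oncofetal genes are switched off in hepatocytes around birth and can return when the liver regenerates, is injured or turns malignant. IGF2BP1 is an RNA-binding protein that stabilises growth-related messages, and its own message is a classical target of the let-7 microRNAs, which are scarce in the embryo and abundant in adult tissue. H19 is an imprinted long non-coding RNA, read from the maternal chromosome, and the host of the microRNA pair miR-675. AFP is the fetal relative of albumin and a serum marker of liver cancer, and GPC3 is a heparan sulfate proteoglycan of the cell surface used as a tissue marker of hepatocellular carcinoma.

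*Igf2bp1* (ENSMUSG00000013415) lies on chromosome 11 of GRCm38 at 95957163-96005940, on the minus strand, and *H19* (ENSMUSG00000000031) on chromosome 7 at 142575529-142578143, on the minus strand. *Afp* (ENSMUSG00000054932) lies on chromosome 5 at 90490737-90508907, on the plus strand, and *Gpc3* (ENSMUSG00000055653) on the X chromosome at 52272426-52613950, on the minus strand. GENCODE places 4 genes of the antisense type across 3 of them (all but *H19*). Across *H19* it places *Gm27483* and *Gm27786*, of the type misc_RNA, on the opposite strand, and neither is in the table. Whether the counting used strand is not given in the sources used here, so that reads of the oncofetal genes and of genes on the opposite strand cannot be told apart. Of the 4 antisense genes, 1 is in the table, *Gm43449*, which crosses *Afp* and had values from 2 to 82.

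The let-7 seed and its matches in *Igf2bp1* are shown because they join *Igf2bp1* to *Hmga2*, a chromatin protein of fetal cells whose values are given below. In the mature let-7a, from the RefSeq table for GRCm38.p6, the seed (bases 2 to 8) is in capitals:
let-7a-5p: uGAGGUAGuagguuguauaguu
The reverse complement of this seed, CTACCTC, was found 4 times in the 6337 bases after the stop codon of the *Igf2bp1* transcript with the longest coding sequence, read on the transcript strand only. These are the matches with 11 bases on either side, from the GENCODE transcript, with the seed match in capitals:
*Igf2bp1* chr11:95961768-95961796, minus strand: tgcgaagtaaaCTACCTCaaggtgtgaag
*Igf2bp1* chr11:95959347-95959375, minus strand: agtgctattaaCTACCTCagccccagagg
*Igf2bp1* chr11:95958753-95958781, minus strand: aaatggatgaaCTACCTCagtcctcacag
*Igf2bp1* chr11:95958130-95958158, minus strand: ttggttttaatCTACCTCttagcaaaaca
*Hmga2* also held 4 matches, in 3014 bases, and 1 of them is shown:
*Hmga2* chr10:120364214-120364242, minus strand: acattcaatttCTACCTCagcatcagttg
Among the 12961 coding genes of the table with such a stretch, 9.20% held at least 1 match and 23 genes (0.177%) held 3 or more. *Igf2bp2* and *Igf2bp3*, the paralogs of *Igf2bp1*, held 1 match each, and *Afp* and *Gpc3* held 0 in 201 and 359 bases. A match is a run of letters, and let-7 itself was not measured in these libraries.

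The miR-675 hairpin lies inside exon 1 of *H19*, at chr7:142577064-142577147 on the minus strand. Its mature microRNAs share no seed with each other or with let-7a:
miR-675-5p: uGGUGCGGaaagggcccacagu
miR-675-3p: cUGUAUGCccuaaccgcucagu

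The promoters of *Afp* and *Gpc3* are shown because they belong to different kinds, and the same table was used for the shares of all promoters. Both are the 250 bases before the RefSeq gene start in GRCm38.p6, read on the gene's own strand. In *Afp* the capitals mark GTTAAT, a motif known from sites of the hepatocyte factor HNF1, and the TATA box TATAAA:
*Afp* chr5:90490464-90490713, plus strand: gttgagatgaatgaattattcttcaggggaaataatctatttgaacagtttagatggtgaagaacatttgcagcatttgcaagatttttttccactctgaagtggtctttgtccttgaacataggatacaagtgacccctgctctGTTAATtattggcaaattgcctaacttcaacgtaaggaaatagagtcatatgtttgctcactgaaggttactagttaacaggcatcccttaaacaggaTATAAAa
In *Gpc3* the capitals mark CCGCCC, the core of a GC box:
*Gpc3* chrX:52613975-52614224, minus strand: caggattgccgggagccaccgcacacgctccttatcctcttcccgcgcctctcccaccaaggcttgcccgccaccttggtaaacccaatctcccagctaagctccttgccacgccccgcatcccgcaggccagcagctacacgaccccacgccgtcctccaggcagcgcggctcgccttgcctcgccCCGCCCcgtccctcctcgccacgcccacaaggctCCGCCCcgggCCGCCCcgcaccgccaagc
The *Afp* promoter held 36.0% G and C and 1 CpG, and the *Gpc3* promoter 71.6% G and C and 25 CpGs, against medians of 52.4% and 6 CpGs over 32851 promoters. Searched on both strands, GTTAAT occurred in 6.43% of these promoters, TATAAA in 12.4% and CCGCCC in 32.7%. *Afp* held GTTAAT and TATAAA once each, 128 and 30 bases before the GENCODE start of the gene, and no CCGCCC. *Gpc3* held CCGCCC 3 times and neither of the other motifs.

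Per kilobase of exon, which allows levels to be compared between genes, *H19* had the highest mean level of the 4, with 68.7 units per kb over the 18 mice. *Afp* and *Gpc3* followed with 29.5 and 29.4 units per kb, which did not differ beyond their spread. *Igf2bp1* was far lower, with 2.69 units per kb, and 0.758% of the 15040 genes with a known exon length were lower still. *Alb*, the adult relative of *Afp*, had 949838 units per kb. Of the 4 oncofetal genes, 3 were at 10 units or more in every mouse, and *Igf2bp1* was below 10 in 8 mice.

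*Igf2bp1* was the gene whose level differed most between the groups. Its values were 12, 33, 20 and 49 in the pair-fed WT mice. They were 19, 4, 1, 3 and 8 in the pair-fed *Apoe* KO mice. The pair-fed KO mice were thus mostly below the WT mice, with an overlap that came from *Apoe* KO mouse 1. In the EtOH-fed WT mice the values were 6, 1, 7, 14 and 7. They were 18, 72, 164 and 31 with *Apoe* KO and ethanol, all above every EtOH-fed WT mouse. The nearest values of these EtOH-fed groups were 14 and 18, in EtOH-fed WT mouse 4 and in *Apoe* KO mouse 1, the animal that went against its label.

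With ethanol, *Igf2bp1* averaged 71.3 ± 66 units (SD, n = 4) in *Apoe* KO mice and 7 ± 4.64 units (SD, n = 5) in WT mice. Without ethanol, it averaged 7 ± 7.18 units (SD, n = 5) in *Apoe* KO mice and 28.5 ± 16.2 units (SD, n = 4) in WT mice. In order, EtOH-fed *Apoe* KO came first, pair-fed WT next, and EtOH-fed WT and pair-fed *Apoe* KO mice shared the lowest mean. The first and the next of these groups overlapped, as their ranges were 18 to 164 and 12 to 49.

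On the scale of mean log2(value + 1), *Igf2bp1* was higher by 2.96 (SE 0.83) in *Apoe* KO than in WT mice under ethanol, a 10.2-fold ratio of the mean values. The difference was 2.40 without EtOH-fed *Apoe* KO mouse 4 and 3.44 without mouse 1. In pair-fed mice the genotype difference had the opposite sign, −2.14 (SE 0.70). The diet difference was −1.96 (SE 0.64) in WT and 3.14 (SE 0.88) in *Apoe* KO mice. The latter was 2.58 without EtOH-fed mouse 4 and 3.62 without EtOH-fed mouse 1. The difference between the genotype differences of the 2 diets was 5.10 (SE 1.09), and it was 4.55 to 5.59 when any 1 mouse was left out. With a pseudocount of 10 in place of 1 it was 3.12, since many *Igf2bp1* values were below 10. *Igf2bp1* was the 1 gene of the 4 whose EtOH-fed genotypes did not overlap. Among all genes, 7.12% had every EtOH-fed *Apoe* KO mouse above every EtOH-fed WT mouse, and since the gene was chosen on this contrast nothing is read from that share.

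Few reads stood behind the *Igf2bp1* values. In EtOH-fed *Apoe* KO mouse 4, 1 read was worth 4.10 units, so that the value of 164 corresponded to about 40 reads, with an exact Poisson 95% interval of 117 to 223 units. The values of mice 2, 5 and 1 corresponded to about 30, 8 and 26 reads, with intervals of 48.3 to 102, 13.3 to 60.6 and 12.0 to 26.8 units. The highest EtOH-fed WT value, 14 in mouse 4, corresponded to about 11 reads, with an interval of 7.2 to 25.8 units. The EtOH-fed WT interval thus reached into those of *Apoe* KO mice 1 and 5, and stayed below those of mice 2 and 4. These intervals cover counting error only.

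*Igf2bp1* also moved with the depth of the libraries. In the 8 resolved mice with the fewest reads (5.60 to 19.2 M), its values ran from 3 to 164 with a median of 32.0. In the 8 with the most reads (23.9 to 52.2 M), they ran from 1 to 20 with a median of 7.50. The same split gave medians of 86.0 and 78.5 for *H19*, 101 and 88.5 for *Afp* and 78.0 and 85.0 for *Gpc3*. The EtOH-fed *Apoe* KO group held 3 of the mice with few reads and the EtOH-fed WT group none of them. Within groups, the highest value fell in the shallowest mouse in pair-fed *Apoe* KO and EtOH-fed *Apoe* KO mice as well as in the shallowest of the 3 resolved EtOH-fed WT mice, and the lowest value fell in the shallowest mouse in pair-fed WT mice. The part of depth in the *Igf2bp1* differences was not tested.

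**Figure D1:**
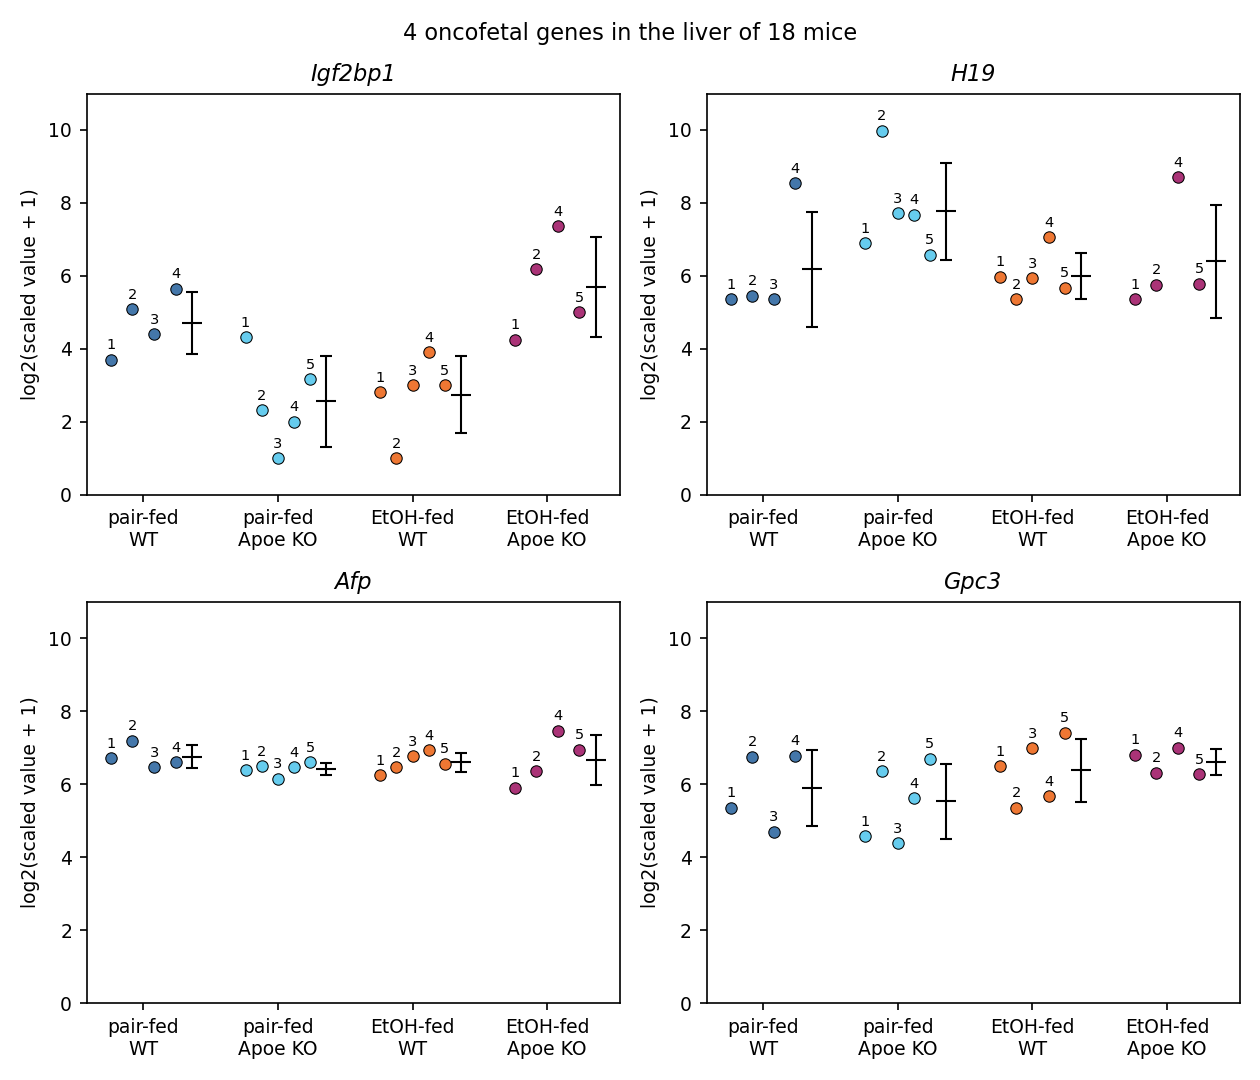
Level of each of the 4 oncofetal genes in every mouse, as log2(scaled value + 1) on the vertical axis, by group on the horizontal axis. Points are mice with their numbers, and the bars beside them are the mean and SD of the group. *Igf2bp1* was higher in all 4 EtOH-fed *Apoe* KO mice than in the 5 EtOH-fed WT mice, *H19* had single high mice in 3 groups, *Afp* was nearly level, and *Gpc3* overlapped between all groups.

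**Figure D2:**
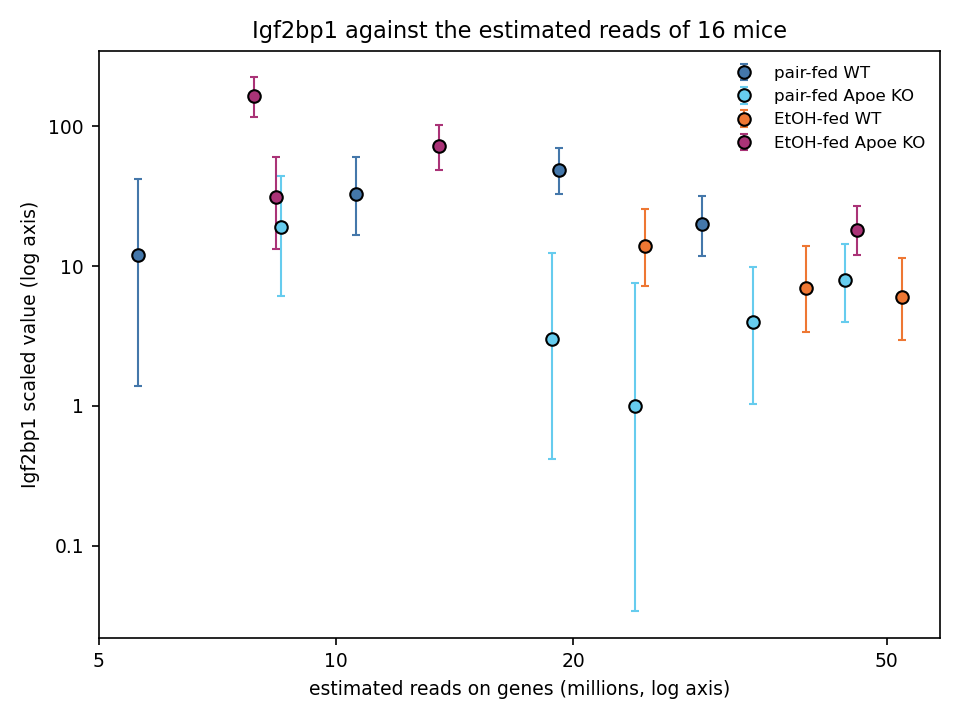
*Igf2bp1* scaled value (vertical, log axis) against the estimated reads on genes in M reads (horizontal, log axis) in the 16 mice whose depth could be resolved. Points are mice coloured by group and bars are exact Poisson 95% intervals, which are widest where a value rests on 1 or 2 reads. The highest value, 164, stands at 7.88 M reads.

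*H19* was uneven within the groups, and its median was highest in pair-fed *Apoe* KO mice. Its values were 40, 43, 40 and 372 in the pair-fed WT mice. They were 118, 1011, 210, 203 and 95 in the pair-fed *Apoe* KO mice. WT mouse 4 was thus higher than 4 of the 5 *Apoe* KO mice, while the other 3 WT mice were below all of them. In the EtOH-fed WT mice the values were 62, 40, 60, 132 and 50. In the EtOH-fed *Apoe* KO mice they were 40, 53, 418 and 54. Mouse 4 stood far above the other 3, whose values lay within the range of the WT mice.

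The median *H19* value was 203 in pair-fed *Apoe* KO mice, 60.0 in EtOH-fed WT, 53.5 in EtOH-fed *Apoe* KO and 41.5 in pair-fed WT mice. The means were 327 ± 385 (SD, n = 5), 68.8 ± 36.4 (SD, n = 5), 141 ± 185 (SD, n = 4) and 124 ± 166 (SD, n = 4), in the same order. The groups after the first therefore changed places between medians and means. On the log2(value + 1) scale *H19* was higher by 1.59 (SE 0.99) in pair-fed *Apoe* KO than in pair-fed WT mice. The difference was 2.38 without WT mouse 4 and 1.04 without *Apoe* KO mouse 2. Under ethanol the genotype difference was 0.40 (SE 0.83), and it turned to −0.37 without *Apoe* KO mouse 4.

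The diet difference of *H19* was −0.18 (SE 0.84) in WT mice, and it turned to 0.61 without pair-fed WT mouse 4. In *Apoe* KO mice it was −1.37 (SE 0.98), and −2.14 without EtOH-fed mouse 4. The latter contrast gave −0.82 without pair-fed mouse 2, which had the value of 1011, and −1.02 without EtOH-fed mouse 1. The difference between the genotype differences of the 2 diets was −1.19 (SE 1.29), less than 1 standard error from 0. It was −1.98 to −0.64 when any 1 mouse was left out. The sign of the *H19* genotype difference under ethanol rested on 1 mouse, so that no opposite or equal direction in the 2 diets can be read for *H19*. The 2 genes had mean differences of opposite sign within a contrast, −2.14 for *Igf2bp1* and 1.59 for *H19* for the genotype in pair-fed mice, and 3.14 and −1.37 for the diet in *Apoe* KO mice. In both contrasts the groups overlapped for *H19* and for *Igf2bp1*.

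Sampling noise was small beside the spread of *H19*. The value of 1011 in pair-fed *Apoe* KO mouse 2 corresponded to about 1058 reads (exact Poisson 95% interval 951 to 1074 units), and the 372 in pair-fed WT mouse 4 to about 221 reads (324 to 424 units). The 418 in EtOH-fed *Apoe* KO mouse 4 corresponded to about 102 reads (341 to 507 units). The 40 in pair-fed WT mouse 1 rested on about 7 reads (16.2 to 83.1 units). The high mice were therefore apart from the others of their groups by more than counting error.

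*Afp* was the most even of the 4 genes. Its values were 104, 146, 88 and 97 in the pair-fed WT mice. They were 83, 89, 70, 88 and 96 in the pair-fed *Apoe* KO mice. The EtOH-fed WT mice had 75, 88, 108, 122 and 94, and the EtOH-fed *Apoe* KO mice 59, 81, 176 and 123. All 4 groups overlapped, and the lowest and the highest of the 18 values fell in the same group, EtOH-fed *Apoe* KO. The pooled SD within groups was 0.39 on the log2(value + 1) scale, against 0.88 for *Gpc3*, 1.15 for *Igf2bp1* and 1.29 for *H19*.

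*Afp* was lower by 0.33 (SE 0.17) on that scale in pair-fed *Apoe* KO than in pair-fed WT mice, and the difference stayed between −0.42 and −0.18 when any 1 mouse was left out. Under ethanol the genotype difference was 0.07 (SE 0.36). It turned to −0.19 without *Apoe* KO mouse 4 and to −0.06 with median-of-ratios size factors in place of the deposited scaling, which moved the median difference of all genes by 0.127 in this contrast. Without *Apoe* KO mouse 1 it was 0.33. The diet differences were −0.15 (SE 0.20) in WT and 0.25 (SE 0.35) in *Apoe* KO mice. The latter was −0.02 without EtOH-fed mouse 4 and 0.50 without EtOH-fed mouse 1. With all mice, none of these 3 differences exceeded its standard error. In EtOH-fed *Apoe* KO mouse 4 the *Afp* value rested on about 43 reads, with an interval of 127 to 237 units, which overlapped that of EtOH-fed WT mouse 4 (98.4 to 149 units).

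*Gpc3* varied several-fold within each group other than EtOH-fed *Apoe* KO. Its values were 40, 107, 25 and 109 in the pair-fed WT mice. They were 23, 81, 20, 48 and 103 in the pair-fed *Apoe* KO mice. The EtOH-fed WT mice had 89, 40, 126, 50 and 170, and the *Apoe* KO mice under ethanol had 111, 79, 127 and 77. The last group was the narrowest, with a 1.65-fold range against 4.25-fold to 5.15-fold in the others, and it lay within the range of the EtOH-fed WT mice. *Gpc3* is X-linked, and EtOH-fed *Apoe* KO mouse 1, whose X and Y genes went against its label, had a *Gpc3* value of 111.

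*Gpc3* averaged 70.3 ± 44.0 units (SD, n = 4) in WT and 55.0 ± 36.3 units (SD, n = 5) in *Apoe* KO mice of the pair-fed groups. Under ethanol it averaged 95 ± 54.0 units (SD, n = 5) in WT and 98.5 ± 24.6 units (SD, n = 4) in *Apoe* KO mice. The largest of its differences on the log2(value + 1) scale was that of diet in *Apoe* KO mice, 1.07 (SE 0.49), which was 0.79 to 1.37 when any 1 mouse was left out and 1.01 without mouse 1. The diet difference in WT mice was 0.49 (SE 0.65). The genotype differences were −0.37 (SE 0.69) in pair-fed and 0.22 (SE 0.43) in EtOH-fed mice. The *Gpc3* groups overlapped in all 4 contrasts. Over all genes, groups did not overlap in 8.13% for the genotype under ethanol, 7.03% for the genotype in pair-fed mice, 14.4% for the diet in WT and 20% for the diet in *Apoe* KO mice.

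**Figure D3:**
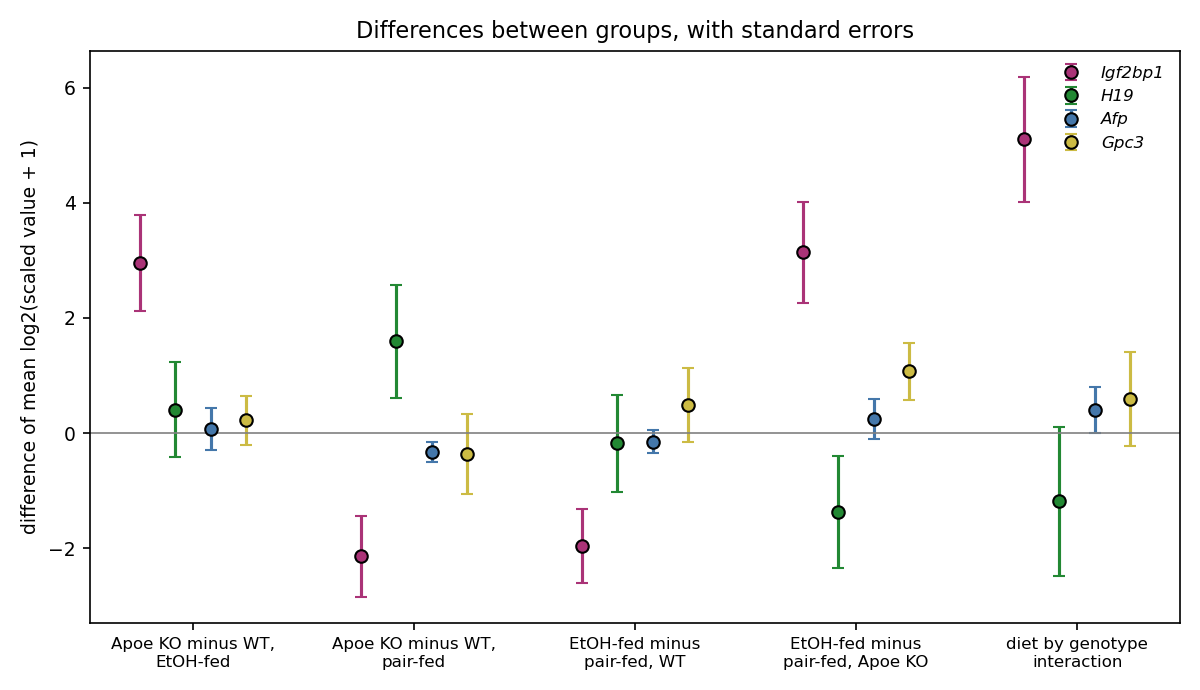
Difference of mean log2(scaled value + 1) between groups (vertical axis) for each of the 4 genes in the 4 contrasts and in the diet by genotype interaction (horizontal axis), with bars for the standard error. *Igf2bp1* lies at 2.96 and −2.14 for the genotype in EtOH-fed and pair-fed mice, and the bars of *H19*, *Afp* and *Gpc3* cross or come near 0 in most contrasts.

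EtOH-fed *Apoe* KO mouse 4 had the highest value of its group for all 4 oncofetal genes. It was the highest of the 18 mice for *Igf2bp1* and *Afp*, where 22.7% of all genes had their highest value in this mouse. Pair-fed WT mouse 4 had the highest value of its group for *Igf2bp1*, *H19* and *Gpc3*. Despite these shared mice, the genes were loosely related across mice. On the log2(value + 1) scale over the 18 mice, which differ in depth and share 4 groups, Pearson's r of *Igf2bp1* was 0.02 with *H19* (Spearman's rho −0.05), 0.51 with *Afp* (rho 0.41) and 0.36 with *Gpc3* (rho 0.29). Without the 2 mice farthest from the median of *Igf2bp1*, r was −0.13, 0.18 and 0.10, so that the larger values rested on those mice. *Afp* and *Gpc3* gave r = 0.32 (rho 0.37), and 0.13 without the 2 mice farthest from the median of *Afp*.

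The genes most like *Igf2bp1* over the 18 mice, among 12476 genes with a mean value of at least 50, were *Cldn18*, a tight junction protein, *Parm1* and *Vim*, the intermediate filament of mesenchymal cells. Their r with *Igf2bp1* was 0.94 (rho 0.92), 0.92 (rho 0.93) and 0.92 (rho 0.86), and 0.92, 0.86 and 0.87 without the 2 mice farthest from its median. *Vim* averaged 4108 ± 2246 units (SD, n = 4) in *Apoe* KO and 1328 ± 452 units (SD, n = 5) in WT mice under ethanol. In the pair-fed groups it averaged 1253 ± 348 units (SD, n = 5) in *Apoe* KO and 2413 ± 725 units (SD, n = 4) in WT mice, so that the same groups came first and next as for *Igf2bp1*. *Cldn18* was 348 in EtOH-fed *Apoe* KO mouse 4 and 131 in pair-fed WT mouse 4. They were picked as the closest of all genes compared, from libraries whose depths they share with *Igf2bp1*.

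*H19* had no companion as close. Its most similar genes were *Scai* (r = 0.78, rho 0.67), *5530601H04Rik* (r = 0.76, rho 0.75) and *Camsap3* (r = 0.74, rho 0.48), and none of them is a neighbour of *H19* on chromosome 7. Without the 2 mice farthest from the median of *H19*, these r were 0.68, 0.75 and 0.50. *Afp* was most like *Ammecr1* (r = 0.87, rho 0.80) and *Rpp30* (r = 0.87, rho 0.82). *Gpc3* was most like *Papln* (r = 0.90, rho 0.94) and *Igfbp6* (r = 0.90, rho 0.82). Without 2 mice, chosen likewise, these r were 0.83 and 0.74 for *Afp* and 0.87 and 0.83 for *Gpc3*.

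Markers of other cell types were compared in the same contrasts, and between the EtOH-fed genotypes 4.69% of all genes were called (limma, adjusted p under 0.05). The summed value of 7 cholangiocyte and progenitor markers was 9775 in EtOH-fed *Apoe* KO mouse 4, and ranged from 3270 to 9775 in its group and from 2010 to 4293 in EtOH-fed WT mice, with 1 of the 7 called higher. For 7 stellate cell and fibroblast markers the ranges were 17929 to 32173 and 10279 to 16928, with 2 called higher. For 6 Kupffer cell and macrophage markers they were 10891 to 19956 and 4419 to 8354, with all 6 called higher. For 5 markers of proliferating cells they were 573 to 1535 and 251 to 561, with 3 called higher, and mouse 4 was the highest of the 18 mice for all 5. Hepatocyte markers summed to 2103696 to 3018102 and 2019533 to 3547543, with 0 of 5 called.

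Between the EtOH-fed genotypes, 0 of 4 endothelial, 0 of 5 erythroid and 0 of the 2 neutrophil markers in the table (of 5 listed) were called. For the diet in *Apoe* KO mice, where the *Igf2bp1* difference was 3.14 and that of *Gpc3* 1.07, 23.2% of all genes were called. There 5 of 7 stellate, 3 of 4 endothelial, 3 of 5 erythroid, 3 of 6 macrophage, 3 of 5 proliferation, 2 of 7 cholangiocyte and 1 of 5 hepatocyte markers were called higher and none lower. For the diet in WT mice, where 12.7% of all genes were called, 3 of 4 endothelial and 1 of 5 hepatocyte markers were called higher, and 2 of 7 cholangiocyte, 2 of 6 macrophage and 1 of 5 proliferation markers lower. Between the pair-fed genotypes, where 1.73% of all genes were called, 1 endothelial marker was called lower and no other. No listed marker in the table was at 0 in any mouse. A mesothelial list of 6 genes that was chosen after values were seen summed to 559 to 1453 in EtOH-fed *Apoe* KO, 240 to 1000 in EtOH-fed WT, 175 to 632 in pair-fed *Apoe* KO and 233 to 931 in pair-fed WT mice. The part of these cell types in the values of the 4 oncofetal genes was not tested.

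The surroundings of the 4 genes were then followed through 6 lists, tested by limma on log2(value + 1) with Benjamini-Hochberg adjustment over all 15052 genes. The lists too were chosen with earlier results of these data known. Their counts and medians are therefore a description, and no enrichment is read from them. The shares of all genes called in the 4 contrasts are those given with the markers, and 2.84% were called for the interaction.

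Of the IGF2BP and let-7 axis, 10 of 15 listed genes were in the table. EtOH-fed *Apoe* KO mouse 4 had the highest value of the 18 mice for 7 of these 10, against 22.7% of all genes. Between the EtOH-fed genotypes 3 rose and 0 fell in *Apoe* KO, with a median log2 difference of 0.72 against 0.11 over all genes, and between the pair-fed genotypes 0 were called, with a median of −0.11. The 3 were *Hmga1*, *Cd44* and *Hmga2*, chromatin proteins and a hyaluronan receptor. *Hmga2*, which shares the let-7 matches printed above, had values of 50, 84, 319 and 142 under ethanol in *Apoe* KO mice and of 14, 5, 16, 81 and 28 in the EtOH-fed WT mice. The highest value was again in mouse 4, and WT mouse 4 overlapped the KO range. The difference was 2.53 (SE 0.67, limma adjusted p = 0.0474), and its call was lost under 10 of 15 alternatives, with adjusted p from 0.00433 to 0.15, among them leaving out EtOH-fed *Apoe* KO mouse 4. *Hmga2* too was higher in mice with few reads, with a median of 89.5 in the 8 with the fewest and 26.5 in the 8 with the most.

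*Hmga1* rose by 1.21 (SE 0.20, limma adjusted p = 0.00471) and was called under all 16 alternatives, and *Cd44* by 1.12 (SE 0.19, limma adjusted p = 0.00598), also under all 16. Of the 3 called genes, *Hmga2* held 4 let-7 matches, and *Hmga1* and *Cd44* held 0, in 111 and 2992 bases. *Arid3a*, with 2 matches, was 0.66 higher (SE 0.29, limma adjusted p = 0.237) between the EtOH-fed genotypes and rose with the diet in *Apoe* KO mice by 1.30 (SE 0.33, limma adjusted p = 0.0132). *Igf2bp3*, the paralog with the same fetal pattern, had a difference of 1.67 (SE 0.50, limma adjusted p = 0.0783) between the EtOH-fed genotypes. *Igf2bp2*, the paralog kept in adult tissue, had 0.40 (SE 0.32, limma adjusted p = 0.553). Neither paralog was called in any of the 5 comparisons. *Igf2*, whose message gave the IGF2BP family its name, had no entry under that symbol in the deposited table and was not analysed here.

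*H19* was set beside 33 other imprinted genes of 49 listed. None of the 33 was called for the genotype in either diet, and the genotype medians were 0.12 under ethanol and −0.06 in pair-fed mice, close to those of all genes (0.11 and 0.00). With the diet, 3 rose in WT mice, and 9 rose and 1 fell in *Apoe* KO mice. *Slc22a3*, a cation transporter, rose by 1.49 (SE 0.18, limma adjusted p = 0.000205) in WT and by 1.64 (SE 0.16, limma adjusted p = 2.57e-05) in *Apoe* KO mice. *Ddc*, which makes dopamine and serotonin, rose by 1.27 (SE 0.18, limma adjusted p = 0.000871) and 1.42 (SE 0.29, limma adjusted p = 0.00327). *Blcap* rose by 0.45 (SE 0.12, limma adjusted p = 0.0265) and 0.73 (SE 0.10, limma adjusted p = 0.000297), the former lost under 6 of 16 alternatives. *Dcn*, a matrix proteoglycan that is also one of the stellate markers, rose by 0.61 (SE 0.13, limma adjusted p = 0.00483) in *Apoe* KO mice. In pair-fed *Apoe* KO mouse 2, where *H19* reached 1011, none of these 33 genes had its highest value, against 4.74% of all genes. *Meg3*, the imprinted non-coding RNA of another locus, was 170 in that mouse, and was highest in EtOH-fed *Apoe* KO mouse 5 with 1488, where *H19* was 54.

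*Cd81*, an imprinted neighbour of *H19* in the mouse, rose by 0.32 (SE 0.10, limma adjusted p = 0.0281) with the diet in *Apoe* KO mice. That call was lost under 6 of 16 alternatives, among them another scaling by size factors. Its genotype difference in pair-fed mice, where *H19* was higher by 1.59, was −0.01 (SE 0.09, limma adjusted p = 0.949).

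The albumin family was set beside *Afp*, and whether they moved together was not tested. *Alb*, which lies next to *Afp* on chromosome 5, had no call in 5 comparisons, with a difference of −0.16 (SE 0.32, limma adjusted p = 0.844) between the EtOH-fed genotypes. *Afm*, a vitamin E-binding member of the cluster, fell by 0.45 (SE 0.12, limma adjusted p = 0.046) between them, a call that was lost on leaving out 1 mouse for 8 of the 9 mice. *Afm* fell by 0.55 (SE 0.09, limma adjusted p = 0.00106) with the diet in *Apoe* KO mice, under all 16 alternatives.

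Of 25 regulators of *Afp*, *H19* and *Gpc3* in the table, 1 rose between the EtOH-fed genotypes and 1 between the pair-fed genotypes. *Zhx2* and *Zbtb20*, repressors of *Afp* and, for the former, of *H19* and *Gpc3* in adult liver, were not called in any comparison. *Zhx2* was 527 ± 95.3 (SD, n = 4) in pair-fed WT and 739 ± 121 (SD, n = 5) in pair-fed *Apoe* KO mice, a difference of 0.49 (SE 0.15, limma adjusted p = 0.107), while *H19* was higher and *Afp* lower in the latter. Under ethanol its genotype difference was 0.02 (SE 0.15, limma adjusted p = 0.964). *Zbtb20* differed by −0.15 (SE 0.27, limma adjusted p = 0.826) between the EtOH-fed genotypes. *Dnmt3a*, a DNA methyltransferase, rose by 0.70 (SE 0.11, limma adjusted p = 0.00363) in EtOH-fed *Apoe* KO mice. *Foxa3*, a hepatocyte factor, rose by 0.81 (SE 0.11, limma adjusted p = 0.000555) with the diet in WT mice, and *Foxa1*, its relative, fell by 0.61 (SE 0.12, limma adjusted p = 0.00678). *Cebpa*, a factor of the mature hepatocyte, fell by 0.38 (SE 0.09, limma adjusted p = 0.00637) with the diet in *Apoe* KO mice.

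*Gpc3* belongs to the heparan sulfate proteoglycans, of which 24 of 26 listed genes (with their enzymes) were in the table. Between the EtOH-fed genotypes 1 rose and 0 fell, and with the diet 4 rose and 1 fell in WT and 9 rose and 4 fell in *Apoe* KO mice. *Gpc4*, the glypican next to *Gpc3* on the X chromosome, fell by 0.29 (SE 0.10, limma adjusted p = 0.0426) with the diet in *Apoe* KO mice, lost under 9 of 16 alternatives, where the *Gpc3* difference was 1.07. *Sdc1*, the main syndecan of hepatocytes, rose by 0.83 (SE 0.15, limma adjusted p = 0.00405) with the diet in WT and by 0.73 (SE 0.18, limma adjusted p = 0.010) in *Apoe* KO mice. *Sdc4* fell by 0.60 (SE 0.14, limma adjusted p = 0.0132) and 0.94 (SE 0.11, limma adjusted p = 8.81e-05). *Extl1*, an enzyme of chain synthesis, rose by 1.81 (SE 0.17, limma adjusted p = 4.17e-05) and 1.49 (SE 0.27, limma adjusted p = 0.00162). *Sulf2*, which removes sulfate from the chains, rose by 0.93 (SE 0.17, limma adjusted p = 0.00226) in *Apoe* KO mice.

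Other fetal liver and tumour genes, 31 of 39 in the table, had 10 higher and 1 lower call in EtOH-fed *Apoe* KO against EtOH-fed WT mice, with a median difference of 0.73 against 0.11 over all genes. The list shares *Cd24a*, *Epcam*, *Prom1* and *Sox9* with the cholangiocyte markers, and 16 of its 31 genes had their highest value in EtOH-fed *Apoe* KO mouse 4. In pair-fed mice 0 rose and 3 fell in *Apoe* KO. *Pkm*, a pyruvate kinase gene whose products include the fetal and proliferative form, followed *Igf2bp1* in sign in each contrast. The values are per gene and do not separate its forms. Its difference was 1.5 (SE 0.31, limma adjusted p = 0.0158) between the EtOH-fed and −1.19 (SE 0.23, limma adjusted p = 0.0208) between the pair-fed genotypes. The EtOH-fed call was kept under 15 of 16 alternatives. The pair-fed call was kept under 12 of 16, with limma adjusted p up to 0.0862. *Ly6d* rose by 2.15 (SE 0.34, limma adjusted p = 0.00387) and *Lcn2*, a secreted iron carrier of injured liver, by 2.26 (SE 0.36, limma adjusted p = 0.00456) in EtOH-fed *Apoe* KO against WT mice. *Aldoa*, the fetal liver aldolase, rose by 0.56 (SE 0.14, limma adjusted p = 0.0432), a call lost under 8 of 16 alternatives.

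**Figure D4:**
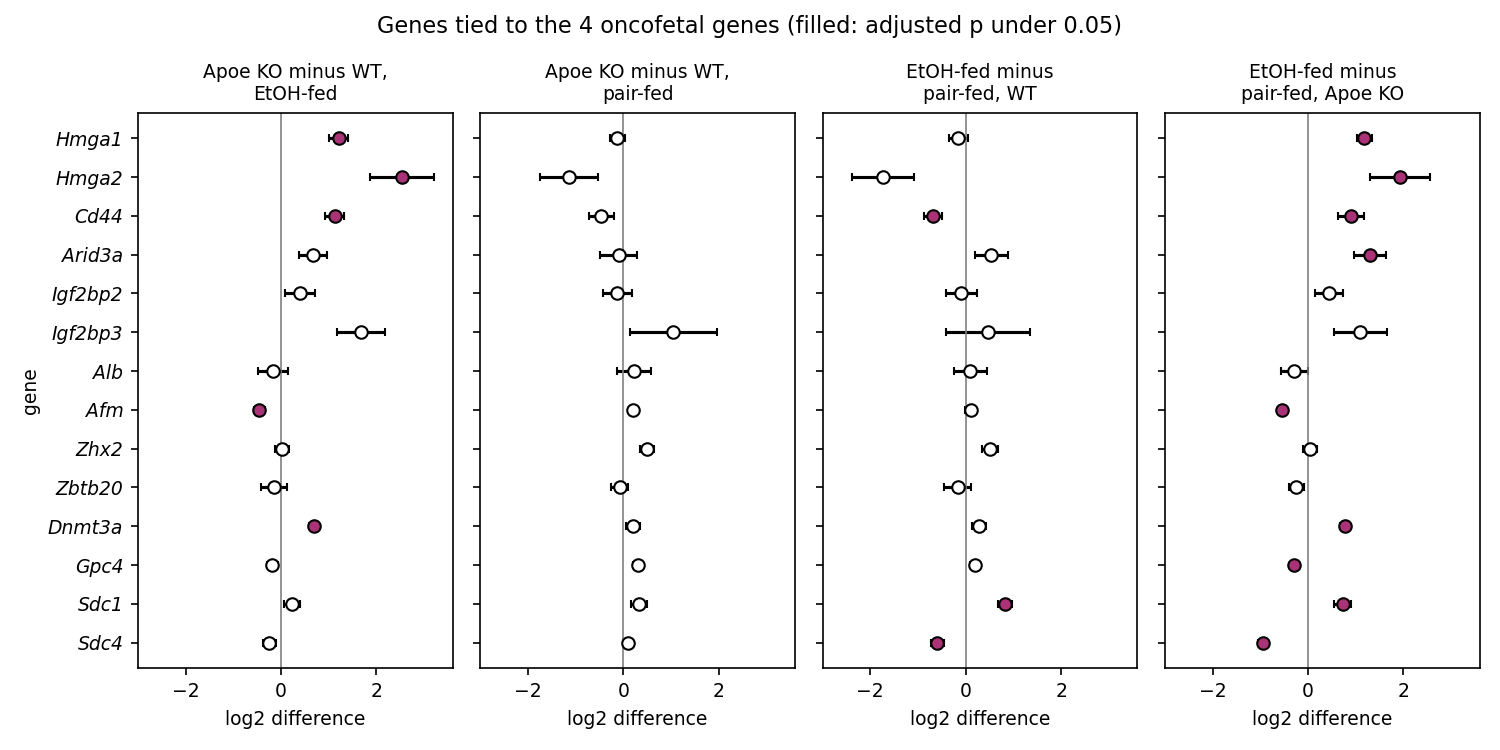
Log2 difference on the log2(scaled value + 1) scale (horizontal axis) with its standard error for 14 genes tied to the 4 oncofetal genes (vertical axis), in 4 contrasts. Filled points passed an adjusted p of 0.05 and open points did not. *Hmga1*, *Hmga2* and *Cd44* are filled for the genotype under ethanol, and *Igf2bp2*, *Igf2bp3*, *Alb*, *Zhx2* and *Zbtb20* are open throughout.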

How the data were processed

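Liver RNA of 18 mice in 4 groups was analysed, with each mouse as 1 replicate and its group taken from the sample title. Per the labels and the submitters' processing notes, poly(A) RNA was sequenced and processed with FastQC, Trimmomatic, HISAT2, SAMtools, featureCounts and DESeq2 on GRCm38; versions are not given in the sources used here. The authors deposited 1 table in which the value per mouse is a signal, namely a read count scaled to a common total and rounded; the scaling step is not described. Its columns of fold changes and p-values were not used. The 195 repeated lines were dropped, leaving 15052 genes, of which 15040 were placed in GENCODE release 21 for mouse.

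The 4 genes and the gene lists were chosen with earlier results of these data known. Differences between groups of these 4 genes are differences of mean log2(value + 1) with standard errors and no p-value. All genes were tested with limma 3.58.1 in R 4.3.3 (lmFit, eBayes with trend) on log2(value + 1), with Benjamini-Hochberg adjustment over 15052 genes; only the groups compared entered a fit, and all 18 mice the interaction. A gene was called at an adjusted p under 0.05; p-values measure the spread between mice, and Poisson intervals cover counting error only. In simulated data for the EtOH-fed genotypes with 200 genes changed 4-fold, 189 (94.5%) were called, with 9 false calls. The changed genes were drawn from those with a mean value above 50, and no shift of a whole mouse was simulated. That share therefore does not cover *Igf2bp1* and *Igf2bp3*, with means of 26.1 and 18.5 over the 18 mice. Units per read were estimated from the spacing of low values in 16 of 18 mice, tested on simulated data (5 of 5 recovered within 1%). Of each list, up to 4 genes with the lowest adjusted p were named, then genes tied to the 4 by background, and the 3 genes most correlated with each, of which some are not reported here. *Meg3*, *Gm43449* and a mesothelial marker list were added after values were seen. Alternatives were other size factors, pseudocounts of 0.1 and 10, a minimum of 10 in every mouse, weights for sample quality, a fit over all 4 groups, the mouse number as a block, and each mouse left out. Python 3.11.15, numpy 2.4.6, pandas 2.3.3, scipy 1.17.1 and matplotlib 3.10.9 were used.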

Additional observations from a re-analysis of the deposited data

Results flagged for a closer look

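In 9 of 128 groups of values 1 mouse stood apart from the others of its group, where chance gives about 6.4. On the log2(value + 1) scale, the measure divides the distance of the extreme mouse from its neighbour by the range of the group. The critical value is 0.829 for 4 mice and 0.710 for 5. For the oncofetal genes these were *H19* in pair-fed WT mouse 4 (0.968) and in EtOH-fed *Apoe* KO mouse 4 (0.874), both high. *Hmga2* stood apart in pair-fed WT mouse 4 (0.858), which was thus high for both *H19* and *Hmga2*. *Arid3a* stood apart in pair-fed *Apoe* KO mouse 3 (0.876), *Slc22a3* in EtOH-fed *Apoe* KO mouse 5 (0.875), and *Afm* in pair-fed WT mouse 3 (0.858). *Extl1* stood apart in EtOH-fed *Apoe* KO mouse 1 (0.863), *Zbtb20* in pair-fed *Apoe* KO mouse 5 (0.777) and *Cd81* in pair-fed *Apoe* KO mouse 2 (0.721), the mouse with the highest *H19*.

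The genotype difference itself differed between the diets, by limma's interaction term over all 18 mice, in 7 of the named genes. The interaction was 1.34 for *Hmga1* (adjusted p = 0.0113), 1.58 for *Cd44* (adjusted p = 0.0202), 3.67 for *Hmga2* (adjusted p = 0.049), 0.81 for *Aldoa* (adjusted p = 0.0213), 2.27 for *Ly6d* (adjusted p = 0.0175) and 2.68 for *Pkm* (adjusted p = 0.00443), all larger under ethanol, and −0.65 for *Afm* (adjusted p = 0.0165). The call of *Hmga2* was lost under 17 of 23 alternatives, with adjusted p from 0.0103 to 0.141.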

How the results depend on the processing

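Of 296 alternatives to the 20 differences of the 4 oncofetal genes, 295 stayed within 1 pooled SD within groups. The *Igf2bp1* interaction with a pseudocount of 10 (3.12 against 5.10) did not. That SD ran from 0.39 for *Afp* to 1.29 for *H19*, a wide limit within which a difference could change sign. The *H19* genotype difference under ethanol did so, from 0.40 to −0.37 without *Apoe* KO mouse 4. The labels do not say that mouse numbers pair animals, and in no contrast did all 4 same-number correlations pass 0.1. They ran from −0.0242 to 0.230 (3 of 4 over 0.1) between the EtOH-fed genotypes, −0.0508 to 0.0706 between the pair-fed genotypes, −0.217 to 0.10 for the diet in WT and −0.0638 to 0.159 for the diet in *Apoe* KO mice. Of 8 mice in each, 6, 3, 2 and 3 correlated best with their own number. With the number as a replicate block, the *Igf2bp1* difference there was 3.02, the count of called genes was 1083 in place of 706, and it was 392 in place of 261 between the pair-fed genotypes. Sample quality weights gave 456 there. Leaving out 1 mouse gave 327 to 620 calls for the EtOH-fed genotypes, 73 (without pair-fed WT mouse 2) to 670 (without WT mouse 3) for the pair-fed genotypes, 1186 to 1904 for the diet in WT, and 167 (without pair-fed WT mouse 4) to 561 for the interaction. With median-of-ratios size factors the calls were 379 higher and 127 lower in place of 639 and 67 between the EtOH-fed genotypes, 1646 and 1617 in place of 2446 and 1042 for the diet in *Apoe* KO mice, and 294 and 84 in place of 392 and 36 for the interaction. Over the 5 comparisons of 28 named genes, 102 alternatives lost a call, 23 gained one and none reversed a call. Reads per mouse and values below 10 limit *Igf2bp1*, where differences of a few units were not detectable.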
